A study of Drosophila melanogaster with 23 samples.

Results

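The vacuolar H+-ATPase (V-ATPase) genes were followed through 23 nascent RNA libraries of Kc167 cells, a female Drosophila line of embryonic origin with haemocyte features. They were taken as every gene whose FlyBase symbol starts with Vha, together with ATP6AP2, whose older symbol is VhaM8.9. This gave 32 of the 17659 genes counted. Another 2 genes of this name, Vha44 and VhaAC39-1, were not analysed here because the identifiers they carry in the annotation used matched nothing in the counts. The genes were placed in 3 classes from general knowledge of the fly: 13 broad copies, which serve cells throughout the body, 15 restricted copies, described mainly from testis, gut, Malpighian tubule or neurons, and 4 unclassed copies.

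The V-ATPase is a rotary proton pump that acidifies lysosomes, endosomes and secretory vesicles. Its V1 sector lies in the cytosol and burns ATP on subunits A and B, held by stalk subunits D, E, F, G and H. Its V0 sector lies in the membrane and moves protons through a ring of subunits c and c″ against the large subunit a, with subunits d and e at its side. Flies carry extra copies of many subunits, and the copies of subunit a are known to place the pump on different membranes. On lysosomes the pump also works with the Ragulator and Rag GTPases that recruit the growth kinase complex TORC1.

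The study used neuRNA-seq, in which cells take up 5-ethynyl uridine (EU, 0.2 mM for 1 h) and the labelled RNA is captured, to follow transcription after loss of AGO2 (an Argonaute), LaminB (a lamina protein) or Dcr-2 (the siRNA endonuclease). Each experiment had its own mock cells, transfected without RNA. Experiment 1 held 3 mock, 3 AGO2 KD (an siRNA) and 3 LaminB KD (dsRNA) libraries. Experiment 2 held 4 groups of 2 libraries, namely mock, si5UTR (siRNA directed at the 5′UTR of AGO2), and this siRNA with a construct for wildtype AGO2 (si5UTR+AGO2) or for its catalytic mutant (si5UTR+V966M), and experiment 3 held 3 mock and 3 Dcr-2 KD (dsRNA) libraries. In these libraries the nascent RNA of each target fell only in part. The paper checked the knockdown of each protein by Western blot, which nascent RNA does not measure. In log2 units, AGO2 fell by 0.47 in AGO2 KD and by 0.91 in si5UTR, Lam fell by 1.63 in LaminB KD, and Dcr-2 fell by 0.53 in Dcr-2 KD (edgeR, all with an adjusted p under 0.1). With si5UTR+AGO2, the level of AGO2 RNA was above mock by 0.59. With si5UTR+V966M, 0 of the 3 targeted genes (AGO2, Lam and Dcr-2) had an adjusted p under 0.1 against mock. Between the 2 constructs 0 of the 3 did.

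Libraries held 5215481 to 15641835 counted reads. Of the haemocyte markers, srp (1738 to 2330 CPM), Hml (1204 to 2381 CPM) and Pxn (519 to 1187 CPM) were highest over the 23 libraries. Col4a1 (8.11 to 53.4 CPM), vkg (5.22 to 30.9 CPM) and eater (1.70 to 11.4 CPM) were lower. NimC1 had only 25 reads in 4 libraries. Of the neuron markers, elav (61.0 to 99.0 CPM) and brp (56.8 to 198 CPM) had reads in all 23 libraries. The others were low, with nSyb at 0 to 4.81 CPM and Syt1 near 0. Sums over these lists thus rest mainly on srp, Hml and Pxn, and on elav and brp. Summed midgut markers stayed at or below 1.08 CPM. CPM are reads scaled to the TMM library size (the total adjusted for composition) within an experiment, so levels set across experiments were normalised separately. In these bulk libraries fewer cells of a type and less RNA per cell cannot be told apart.

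Short stretches of promoter are shown first because the V-ATPase genes are known as a coordinated group. In flies the factor Mitf acts on them through E-boxes, and the factor DREF binds the DRE at many housekeeping promoters. The motifs were searched on both strands from 250 bases before to 50 bases after each annotated gene start, namely the E-box CACGTG, its extended form TCACGTGA, which contains it, and the DRE TATCGATA. None of the 13 broad copies held CACGTG in this window, against 4.18% of 13744 protein-coding genes, and none held TCACGTGA, against 0.160%. TATCGATA was in 2 of the 13 broad copies (15.4%), against 9.25% of all promoters. These 2 matches are printed 5′ to 3′ on the strand of the gene, with the motif in capitals, together with the 1 E-box upstream of a gene start. The sequence is of the RefSeq Release 6 genome (dm6).
Vha55, chr3R:12628000-12628029, minus strand: gcttccaaattTATCGATAacatacggcga
VhaSFD, chr2L:16727831-16727860, minus strand: tctgctcgtcaTATCGATAttcttatatat
VhaAC45RP, chr3R:30166575-30166604, minus strand: ccgttacagaaaCACGTGgcactcgaattg
The first base of the motif lay 189 bases before the start of Vha55, which encodes the ATP-binding subunit B, and 23 bases before that of VhaSFD, which encodes the regulatory subunit H. In VhaAC45RP, a relative of the accessory subunit, it lay 173 bases before the start. The other match, CACGTG in VhaM9.7-d, lay 23 bases after the start. A match is a description of letters and no measure of binding, and only 1 start per gene was used.

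The broad copies made up nearly all of the V-ATPase neuRNA signal in Kc167 cells. All 13 had reads in all 23 libraries, with 5774 (Vha14-1) to 276302 (Vha16-1) reads in total. Their share of the summed level per kb was 96.3% to 97.5% in every library, with a median of 97.1%.

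**Figure D1:**
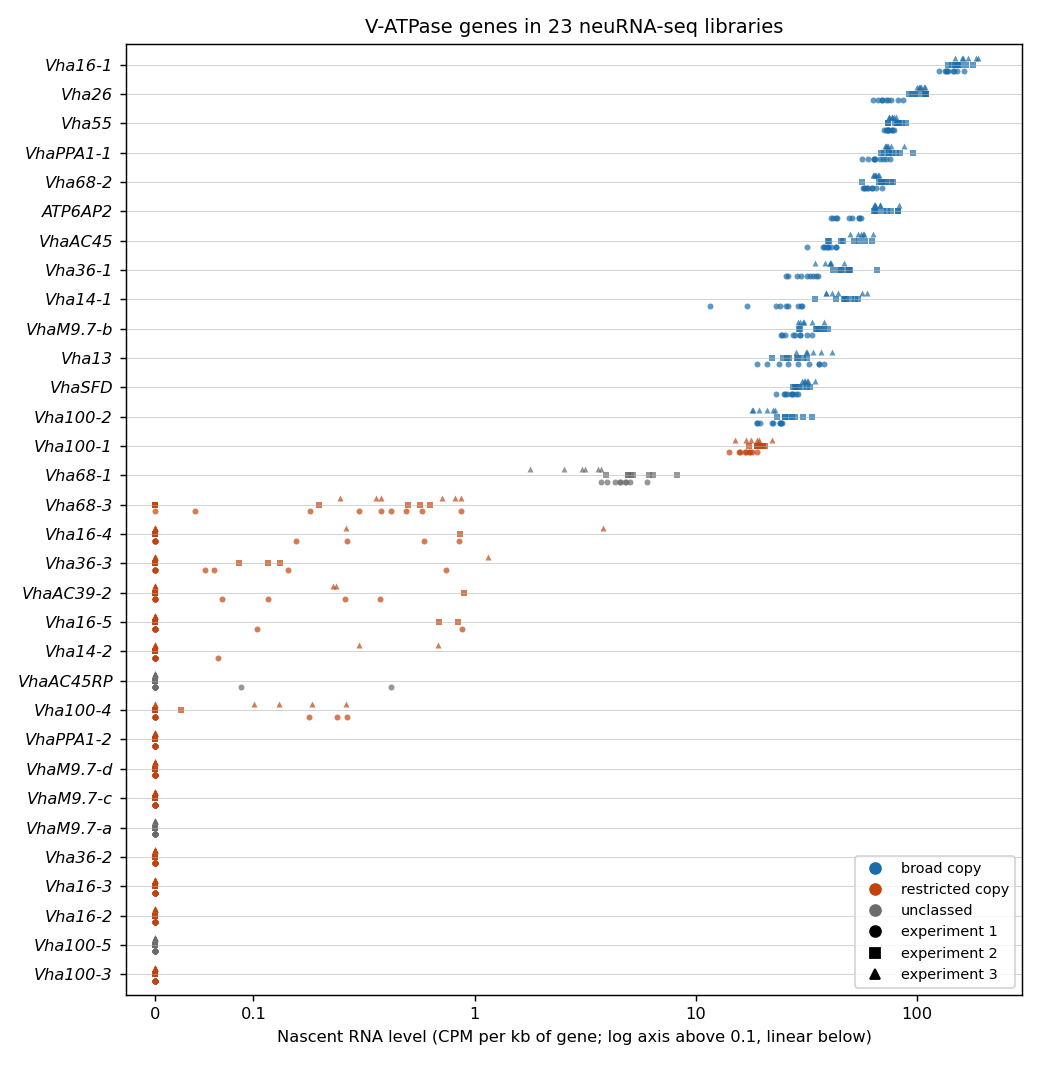
neuRNA level of each of 32 V-ATPase genes (horizontal axis, CPM per kb of annotated gene, log scale above 0.1 and linear below) with 1 point per library, coloured by class and shaped by experiment. The 13 broad copies sit to the right, Vha100-1 is the 1 restricted copy beside them at 14.1 to 22.0 CPM per kb, and 9 genes have no point above 0.

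Within the V0 sector, the proteolipid subunit c gene Vha16-1 was the highest of all members in the mock libraries of each experiment. Its level was 137 ± 9.998 CPM per kb in experiment 1, 168 ± 15.2 in experiment 2 and 178 ± 16.3 in experiment 3 (SD, n = 3, 2 and 3). In experiment 1 this placed it at percentile 98.6 of the 8023 tested genes with a length. The libraries of Vha16-1 did not overlap those of the next gene in any experiment. VhaPPA1-1, which encodes the related ring subunit c″, was at 66.9 ± 4.87 CPM per kb in the same mock libraries, and VhaM9.7-b, which encodes the small subunit e, at 30.4 ± 1.27. Vha100-2, which encodes subunit a, had the lowest mean of the broad copies in each experiment, at 24.3 ± 0.21 CPM per kb in experiment 1. Its libraries lay within the range of Vha14-1 and Vha13 there, and overlapped those of VhaSFD in experiment 2, so its place below them is not resolved.

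In the V1 sector of the same mock libraries, Vha26 (subunit E, 76.8 ± 4.71 CPM per kb) and Vha55 (subunit B, 76.6 ± 2.60) overlapped each other, and Vha68-2 (catalytic subunit A) followed at 65.9 ± 3.44. Next came the stalk genes Vha36-1 (subunit D, 33.5 ± 2.11), Vha13 (subunit G, 30.8 ± 6.32) and Vha14-1 (subunit F, 27.4 ± 3.86). VhaSFD was at 26.9 ± 1.45. Vha13 overlapped Vha36-1, Vha14-1 and VhaSFD, and Vha14-1 overlapped VhaSFD, so their order is only partly resolved. All Vha36-1 libraries lay above those of Vha14-1 and VhaSFD in experiment 1. The order of Vha36-1 and Vha14-1 did not hold in experiments 2 and 3, where their mock libraries overlapped. There Vha14-1 had the higher mean, at 48.9 against 47.6 CPM per kb in experiment 2 and 45.6 against 40.0 in experiment 3. Among accessory genes in experiment 1, ATP6AP2, which encodes the prorenin receptor homologue, was at 51.6 ± 2.76 CPM per kb and VhaAC45 at 42.3 ± 1.41. VhaSFD contains the miRNA gene mir-1006 on its own strand, so reads over that stretch were lost to it. Reads were counted over whole gene bodies, introns included, so a level per kb is not a number of transcripts.

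The exception among the restricted copies was Vha100-1, a subunit a gene known for its role at the synapse. Vha100-1 had reads in all 23 libraries, 28301 in total, against 49059 for Vha100-2. It was at 16.3 ± 1.96 CPM per kb in mock of experiment 1, percentile 57.3 of tested genes, directly below Vha100-2 and with no overlap. Vha100-1 made up 36.1% to 54.8% of the Vha100 family level per kb over the 23 libraries, with a median of 42.4%. The restricted class thus does not describe Vha100-1 in these cells. The neuron markers elav and brp were also read in every library, and their part in this was not tested.

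The other restricted copies together gave 1 to 41 reads per library. Vha68-3, a subunit A copy described from testis, had 192 reads in 18 libraries and passed the filter, although it begins 178 bp after the end of Vha68-2 on the same strand. Another 6 restricted copies had 13 to 37 reads in all 23 libraries together. Vha100-4 was the highest of these, with 37 reads in 8 libraries, and it begins 517 bp after the end of Vha100-2. It had 3, 4 and 5 reads in the mock libraries of experiment 3. The 32 reads of Vha16-4, which lies 71 bp after the gene mute, included 14 in 1 mock library of experiment 3. No library held more than 14 reads of any of these 6 genes.

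A further 7 restricted copies had 0 reads in all 23 libraries, namely Vha100-3, Vha16-2, Vha16-3, Vha36-2, VhaM9.7-c, VhaM9.7-d and VhaPPA1-2. A count of 0 allows up to 3 reads, which is 0.188 to 0.556 CPM depending on the library. For VhaM9.7-c the 0 carries no information, because the gene lies wholly inside Teh2 on the same strand and reads shared by genes were not counted. The unclassed Vha100-5 and VhaM9.7-a were also at 0, and VhaAC45RP had 8 reads in 2 libraries. Vha68-1, an unclassed copy of catalytic subunit A, was read in all 23 libraries but at 2.55% to 12.7% of the Vha68 family level per kb.

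After depletion of AGO2, only 1 V-ATPase gene, the broad subunit a copy, passed the test. Of 16 members that could be tested, 0 rose and 1 fell, Vha100-2, while edgeR called 7.92% of all genes tested up and 2.32% down. Unadjusted p was under 0.05 for 3 of the 16 members, against 19.9% of all genes, and DESeq2 also called 0 up and 1 down. Over the 16 the median log2 fold change was -0.07, with 12 below 0, and over all genes it was 0.00. Outside Vha68-3, whose few reads give no usable fold, the 95% interval lay within 1.5-fold for 14 of 15 members.

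Vha100-2 (FBgn0028670, chr3R:18390323-18399169, minus strand) had 213, 216 and 215 CPM in the mock libraries and 167, 172 and 168 CPM in AGO2 KD. The groups did not overlap and each was narrow. The fold change was 0.787 (95% interval 0.712 to 0.869), a log2 fold change of -0.35 with a standard error of 0.07 (edgeR's quasi-likelihood test, Benjamini-Hochberg adjusted p = 0.00348). The other subunit a gene was not called. Vha100-1 had 114.7, 95.8 and 121 CPM in mock and 129, 114 and 106 CPM in AGO2 KD, at 1.05-fold (interval 0.905 to 1.22), and the groups overlapped. The share of Vha100-1 in the summed level per kb of the pair was 36.6% to 42.3% in mock and 45.2% to 50.1% in AGO2 KD.

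Another 3 broad copies had no overlap between groups in this comparison but missed the threshold, Vha68-2, VhaAC45 and VhaM9.7-b, all lower in AGO2 KD. With Vha100-2 this made 4 of 16 members (25.0%) whose AGO2 KD libraries all lay below mock, against 12.9% of all genes tested. In the other direction 0 of 16 lay wholly above mock, against 15.7% of all genes. Taking both directions, 25.0% of members and 28.6% of all genes had groups that did not overlap. Vha68-2 was at 0.889-fold (interval 0.806 to 0.981, adjusted p = 0.158 by edgeR) and VhaAC45, an accessory subunit of V0, at 0.858-fold (0.747 to 0.984, adjusted p = 0.191). The proteolipid gene Vha16-1 was at 1.09-fold with an interval of 0.98 to 1.21. Markers of other cells moved in this comparison, with elav and brp up and Pxn and Hml down. Neuron markers summed to 166 to 187 CPM in AGO2 KD against 131 to 137 CPM in mock, and the haemocyte markers to 3950 to 4306 CPM against 4519 to 4940 CPM. Their part in the result for Vha100-2 was not tested.

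**Figure D2:**
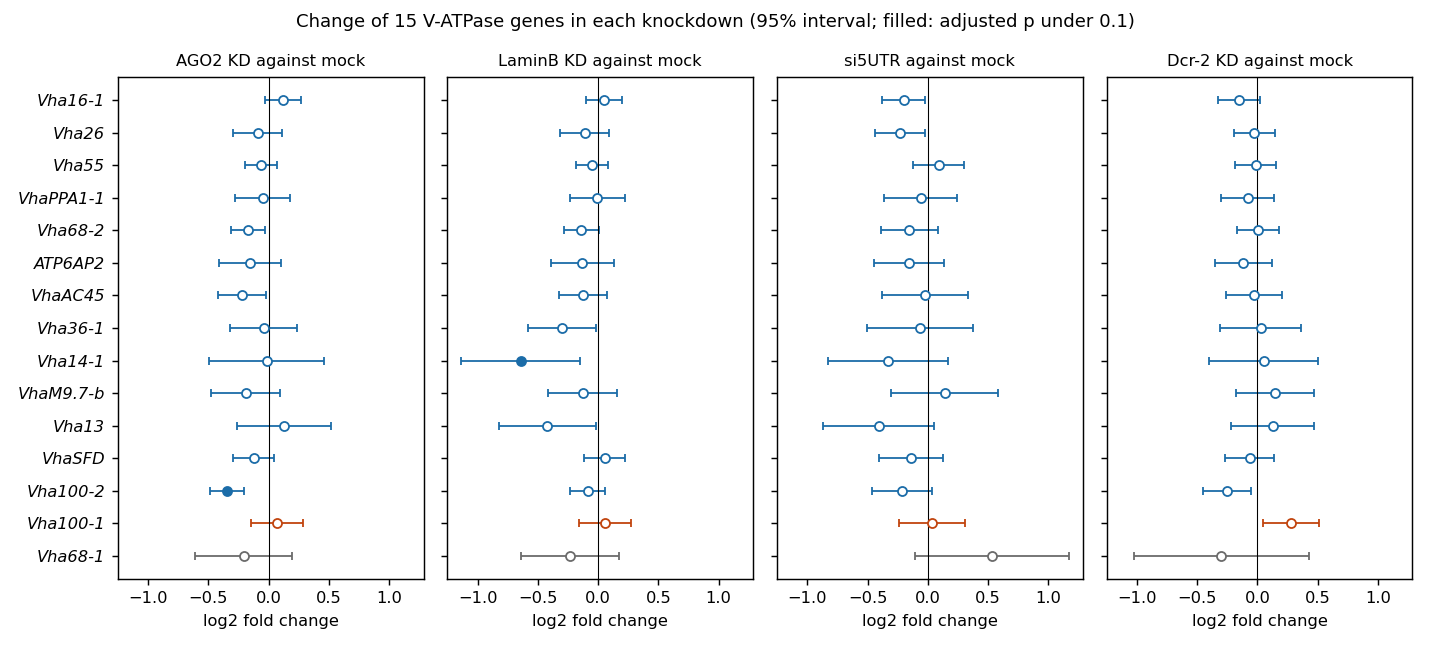
log2 fold change (points) with 95% interval (bars) of 15 V-ATPase genes in each knockdown against the mock of its experiment, ordered by level, with filled points for genes with an adjusted p under 0.1. Filled points are Vha100-2 in AGO2 KD (-0.35) and Vha14-1 in LaminB KD (-0.64), and all others are open. Vha68-3 is left out because of its few reads.

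In LaminB KD against mock only 1 member passed the test, Vha14-1, the gene of the stalk subunit F. This call was lost in 4 of 6 fits with a library removed. Of the 16 tested members 0 rose and 1 fell, where edgeR called 16.7% of all genes up and 12.5% down. DESeq2 gave the same counts, and 3 of the 16 members had an unadjusted p under 0.05, against 34.6% of all genes. The 16 had a median log2 fold change of -0.12, with 12 below 0, and that of all genes 0.00. By sector, 7 of the 9 tested V1 genes and 3 of the 5 tested V0 genes were below 0.

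Vha14-1 (FBgn0262512, chr2R:15679426-15680084, minus strand) had 19.99, 19.0 and 15.2 CPM in mock and 7.61, 11.3 and 15.8 CPM in LaminB KD. The groups overlapped, since LaminB KD replicate 3 lay above mock replicate 3. The fold change was 0.640 (interval 0.455 to 0.900) with an adjusted p of 0.0580 by edgeR. This rested on 68, 93 and 141 reads in the LaminB KD libraries, and 4 of the 6 fits with a library removed no longer called it: without mock replicate 1 (adjusted p = 0.176), mock replicate 2 (0.135), LaminB KD replicate 1 (0.159) or LaminB KD replicate 2 (0.117). It was also lost with a correction for gene length, at a log2 fold change of -0.49 (adjusted p = 0.168), and the 1 member called down in that fit was Vha100-2 instead (-0.19, adjusted p = 0.0643). Vha14-1 is the shortest of the broad genes, at 0.659 kb.

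The 2 other short V1 genes had a similar direction without passing the test. Vha13 had 44.7, 49.2 and 32.5 CPM in mock and 39.9, 25.8 and 28.6 CPM in LaminB KD, at 0.746-fold (interval 0.565 to 0.986, adjusted p = 0.126 by edgeR), and the groups overlapped. Vha36-1 had 38.1, 35.0 and 33.7 CPM in mock and 31.9, 27.7 and 27.1 CPM in LaminB KD, at 0.812-fold (0.668 to 0.987, adjusted p = 0.121), with all LaminB KD libraries below all mock libraries, as for 2 of the 16 members (12.5%) and 17.3% of all genes. In the other direction 0 of the 16 lay wholly above mock, against 19.9% of all genes. Without LaminB KD replicate 1, 3 members were called down, Vha13, Vha36-1 and Vha68-2, but not Vha14-1. Without mock replicate 3, Vha13 and Vha14-1 were called.

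Neuron markers were high in LaminB KD, at a summed 279 to 287 CPM against 131 to 137 CPM in mock. All 3 tested ones, elav, brp and nSyb, were called up, and Syt1 was near 0 in every library. The haemocyte markers srp, Col4a1 and vkg were called up too, and that list summed to 5075 to 5213 CPM against 4519 to 4940 CPM. Their part in the result for Vha14-1 was not tested. Vha100-1, the copy known from neurons, was at 108, 118 and 119 CPM in LaminB KD, within the mock range, with a fold of 1.04 (interval 0.894 to 1.21).

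The knockdowns of AGO2 and LaminB share their mock libraries, so they were also set directly against each other. In LaminB KD against AGO2 KD, 1 member was higher and 2 were lower, where edgeR called 10.2% of all genes up and 10.1% down, and 4 had an unadjusted p under 0.05, against 28.6% of all genes. Vha100-2 was at 196, 213 and 197 CPM in LaminB KD, all above the AGO2 KD libraries, at 1.2-fold (interval 1.08 to 1.32, adjusted p = 0.0189). Vha14-1 was lower at 0.647-fold (0.460 to 0.911, adjusted p = 0.0847). Vha13 was lower at 0.683-fold (0.518 to 0.902, adjusted p = 0.0648), from 35.8, 49.6 and 52.2 CPM in AGO2 KD, with overlapping groups. With a library removed, Vha13 was still called without AGO2 KD replicate 1 or LaminB KD replicate 1, Vha14-1 only without LaminB KD replicate 3, and neither without AGO2 KD replicate 2, AGO2 KD replicate 3 or LaminB KD replicate 2. Neither was called with the length correction (adjusted p = 0.209 for Vha14-1 and 0.116 for Vha13).

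**Figure D3:**
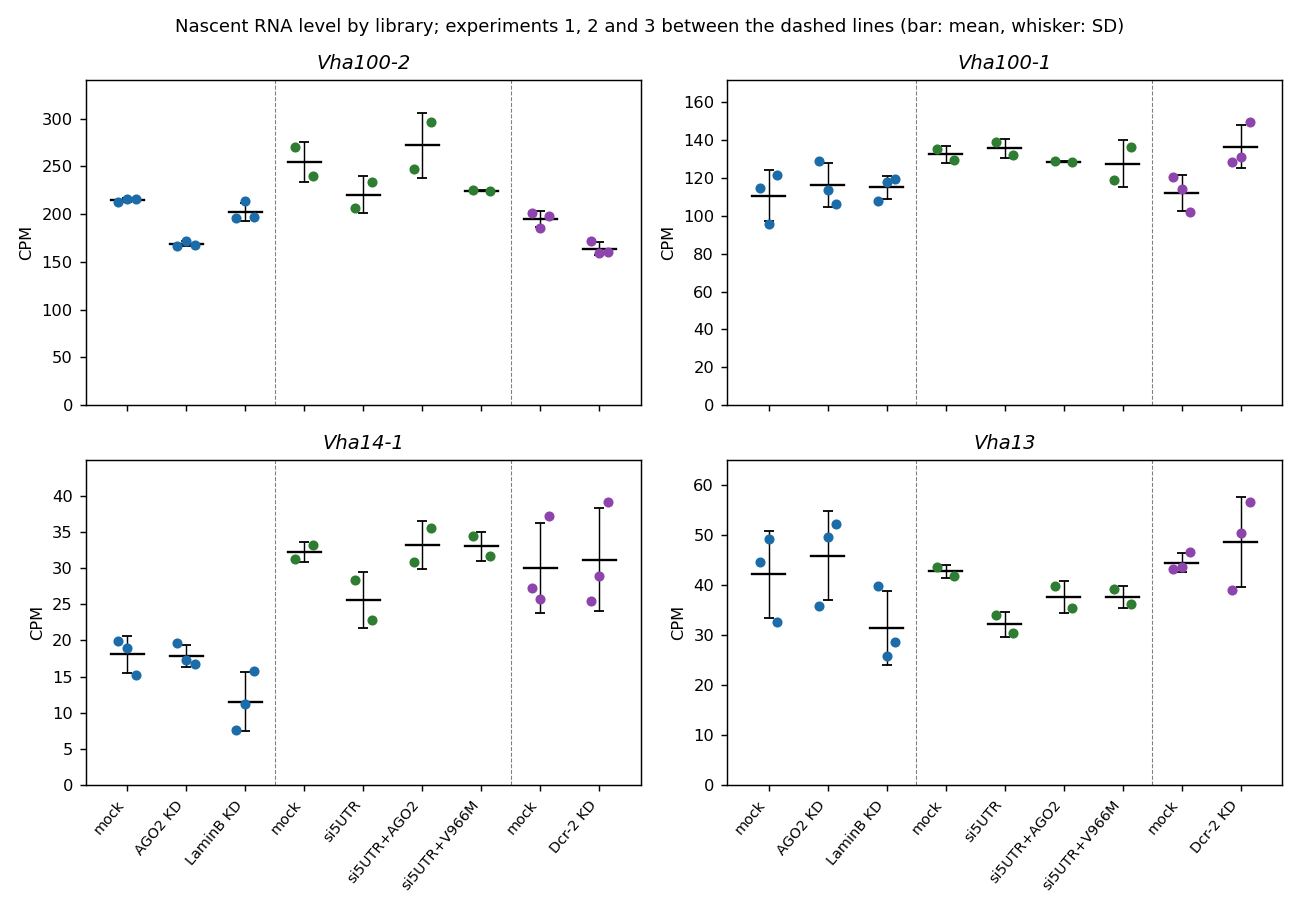
neuRNA level (vertical axis, CPM from 0) of Vha100-2, Vha100-1, Vha14-1 and Vha13 in each library, by group and experiment, with the mean (bar) and SD (whisker). Vha100-2 lies at 167 to 172 CPM in AGO2 KD against 213 to 216 CPM in mock, and Vha14-1 in LaminB KD spreads from 7.61 to 15.8 CPM.

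The siRNA si5UTR, which depletes the same protein as AGO2 KD, gave no called V-ATPase gene. In si5UTR against mock, 0 of 16 members were called by edgeR and 0 by DESeq2, where edgeR called 1.23% of all genes, and 2 members, Vha16-1 and Vha26, had an unadjusted p under 0.05, against 8.49% of all genes. The folds of the 13 broad copies lay between 0.753 and 1.1. Vha100-2 had 270 and 240 CPM in mock and 207 and 234 CPM in si5UTR. These groups of 2 did not overlap, and the fold was 0.864 with an interval of 0.727 to 1.03 (adjusted p = 0.707 by edgeR). The difference between the effects of AGO2 KD and si5UTR on Vha100-2 was -0.14 on the log2 scale (interval -0.40 to 0.13, adjusted p = 0.825 by edgeR), in a contrast that called 0 of 16 members and 0.0748% of all genes. In it 2 members had an unadjusted p under 0.05, against 8.45% of all genes.

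Vha13 and Vha14-1, the genes called down between the knockdowns of experiment 1, had lower values in si5UTR than in mock without passing the test. In AGO2 KD against mock they were at 1.09-fold (interval 0.832 to 1.43) and 0.988-fold (0.710 to 1.38). Vha13 had 43.6 and 41.8 CPM in mock and 33.9 and 30.4 CPM in si5UTR, at 0.753-fold (interval 0.547 to 1.04). Vha14-1 had 31.3 and 33.2 CPM in mock and 28.3 and 22.8 CPM in si5UTR, at 0.794-fold (0.562 to 1.12). Vha16-1 had 1233.3 and 1402.3 CPM in mock and 1209.8 and 1081.6 CPM in si5UTR, at 0.869-fold (0.770 to 0.982, adjusted p = 0.470 by edgeR). None of these 3 pairs of groups overlapped. In si5UTR 6 of 16 members (37.5%) lay wholly below mock, against 19.8% of all genes tested. Another 2 (12.5%) lay wholly above mock, against 20.4%. Vha68-1, the minor copy of subunit A, had 13.1 and 20.6 CPM in mock and 21.4 and 27.4 CPM in si5UTR, at 1.45-fold with an interval of 0.931 to 2.25. The neuron markers summed to 189 to 199 CPM in si5UTR against 150 to 151 CPM in mock, and their part was not tested.

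The rescue constructs were set against si5UTR and against mock in the same experiment. Vha100-2 had 247 and 296 CPM with si5UTR+AGO2 and 225 and 224 CPM with si5UTR+V966M. The wildtype construct lay above both si5UTR libraries, and the catalytic mutant lay within their range. In si5UTR+AGO2 against si5UTR the fold was 1.23 (interval 1.04 to 1.47), which did not pass after adjustment (adjusted p = 0.565 by edgeR). In si5UTR+V966M against si5UTR it was 1.02 (0.858 to 1.21), and between the constructs, mutant over wildtype, it was 0.826 (0.695 to 0.981, adjusted p = 0.525).

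None of the 16 members was called in any of these construct comparisons by edgeR or DESeq2. The background was 0.149% of all genes for si5UTR+AGO2 against mock, 0.630% for si5UTR+V966M against mock, 0.630% for si5UTR+AGO2 against si5UTR, 0.264% for si5UTR+V966M against si5UTR and 0.160% between the constructs. In the same order, 0, 1, 1, 2 and 1 of the 16 members had an unadjusted p under 0.05, against 4.51%, 9.34%, 6.41%, 8.53% and 8.83% of all genes. With 2 libraries a group the intervals were wide, and 9 to 12 of the 13 broad copies had an interval within 1.5-fold. In si5UTR+AGO2 against si5UTR 10 of 16 members (62.5%) lay wholly above, against 17.7% of all genes tested. These 10 include Vha68-3, which had 0 reads in si5UTR and 14 and 19 with si5UTR+AGO2. Another 2 (12.5%) lay wholly below, against 18.8%. In si5UTR+V966M against si5UTR 6 (37.5%) lay above, against 17.7%, and 3 (18.8%) below, against 19.9%. The si5UTR libraries are the same in both and in the comparison of si5UTR with mock. Their labels name no vector, and the empty-plasmid control that the paper describes is not among the 23 libraries. An effect of carrying a plasmid thus cannot be told apart from that of the construct.

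Depletion of Dcr-2 also gave no called member. Of the 16, 0 were called by edgeR and 0 by DESeq2, where edgeR called 2.02% of all genes, and 2 (12.5%) had an unadjusted p under 0.05, against 12.6% of all genes. These 2 were the subunit a genes, with fold changes on opposite sides of 1. Vha100-2 had 201, 186 and 198 CPM in mock and 172, 159 and 161 CPM in Dcr-2 KD, at 0.840-fold (interval 0.733 to 0.963, adjusted p = 0.255 by edgeR). Vha100-1 had 121, 114 and 102 CPM in mock and 129, 131 and 149 CPM in Dcr-2 KD, at 1.21-fold (1.04 to 1.42, adjusted p = 0.282). Neither pair of groups overlapped, which made 2 of 16 members (12.5%) against 19.2% of all genes. The share of Vha100-1 in the pair was 40.1% to 44.5% in mock and 49.4% to 54.8% in Dcr-2 KD. Vha14-1 and Vha13 overlapped between groups here. Vha14-1 had 27.2, 25.7 and 37.2 CPM in mock and 25.5, 28.9 and 39.1 CPM in Dcr-2 KD, and Vha13 43.2, 43.5 and 46.6 CPM in mock and 38.9, 50.3 and 56.5 CPM in Dcr-2 KD. All 13 broad copies had an interval within 1.5-fold. Neuron markers summed to 213 to 263 CPM in Dcr-2 KD and 228 to 264 CPM in mock.

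Summed over the 13 broad copies, the level in experiment 1 was 2738 ± 131 CPM in mock, 2685 ± 204 CPM in AGO2 KD and 2666 ± 110 CPM in LaminB KD (SD, n = 3 each). In experiment 2 it was 3310 ± 126 CPM in mock, 2986 ± 96.9 CPM in si5UTR, 3257 ± 157 CPM with si5UTR+AGO2 and 3091 ± 2.32 CPM with si5UTR+V966M (n = 2 each). In experiment 3 it was 3287 ± 96.7 CPM in mock and 3087 ± 117 CPM in Dcr-2 KD (n = 3 each). Vha16-1 alone gave 989 to 1490 CPM of these sums, so they follow the proteolipid gene more than any other member.

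Whether a knockdown effect differed between experiments was tested directly. For AGO2 KD against Dcr-2 KD, 0 of 16 members were called, where edgeR called 4.99% of all genes, and 1, Vha16-1, had an unadjusted p under 0.05, against 15.8% of all genes. For Vha100-2 this difference was -0.10 on the log2 scale, with an interval of -0.32 to 0.12. For LaminB KD against Dcr-2 KD, 0 of 16 were called, where edgeR called 15.2%, and 2 had an unadjusted p under 0.05, against 24.8% of all genes, Vha14-1 (-0.72, interval -1.39 to -0.04) and Vha13 (-0.57, interval -1.11 to -0.04). In this last contrast 1 member passed in 4 of the 12 fits with a library removed, Vha13 without mock replicate 3, LaminB KD replicate 1 or Dcr-2 KD replicate 1, and Vha14-1 without LaminB KD replicate 3.

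Genes that work with the pump were taken from 2 lists. Of 16 regulators and TORC1 partners counted, 13 were tested in each experiment. Mitf, the transcription factor of lysosomal genes, and Rbcn-3A, a subunit of the Rabconnectin complex that assembles the pump, had reads in all 23 libraries. In LaminB KD against mock 1 of 13 rose, Iml1, a subunit of the GATOR1 complex that restrains TORC1, at 221 to 243 CPM against 190 to 210 CPM in mock (log2 fold change 0.21, standard error 0.07), and none fell, where 16.7% of all genes rose and 12.5% fell. In AGO2 KD, si5UTR and Dcr-2 KD against mock 0 of 13 were called.

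Of 22 lysosomal genes counted, 17 were tested in experiment 1. In LaminB KD 3 of the 17 rose and 1 fell, against the same 16.7% and 12.5% of all genes. Npc1a, the cholesterol transporter of late endosomes, was at 45.4 to 55.6 CPM against 38.5 to 40.4 CPM in mock (log2 fold change 0.38, standard error 0.12), the protease gene CtsF rose by 0.33 and the lysosomal sugar exporter spin by 0.14. No lysosomal gene was called in AGO2 KD, si5UTR or Dcr-2 KD against mock.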

How the data were processed

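The authors trimmed reads of 50 bp with cutadapt 1.10, mapped them with HISAT2 2.0.4 to the dm6 assembly and made strand-specific counts over entire genes, introns included, with featureCounts 1.5.0-p3. The authors deposited these counts without normalisation or filter, and the reads carry no molecular identifiers. Experiments were taken from the deposited lookup table. Separate fits were made for each (edgeR 4.0.16, R 4.3.3, treatment only, all groups, TMM, filterByExpr), leaving 8142, 8727 and 7733 genes. The quasi-likelihood F test was adjusted by Benjamini-Hochberg over all of them, and the threshold for a call was an adjusted p of 0.1. Effects of different experiments were compared by an interaction contrast over cell means. Intervals are at 95% on the t distribution, and the standard error is the log2 fold change over the square root of F. Nothing in the sources used here says whether replicates were separate cultures, so p-values measure the spread between libraries. Floors of 3 reads cover counting error only. Symbols and gene lengths came from the Ensembl BDGP6 annotation (17464 of 17659 identifiers). Paralogues with near-identical stretches could share reads, which the counts do not show.

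The members, their classes, the 2 context lists (regulators with TORC1, lysosome) and the markers (haemocyte, neuron, testis, midgut) were chosen with earlier results of these data known. The values of 1 gene of the lysosome list, which entered its counts, are not reported here. Members called in any comparison were named with the value in every library, and the others by range, except that members with no overlap between groups or with the lowest p were named after their values were seen. Testis markers summed to 25.2 to 65.6 CPM. Tested on simulated counts in which 200 genes had a 2-fold change, edgeR found 75.5% of them in AGO2 KD (7993 genes), 61.5% in si5UTR (8274 genes) and 73.5% in Dcr-2 KD (7601 genes), and the interaction of AGO2 KD with Dcr-2 KD found 58% (8330 genes). In the same order 11.7%, 7.52%, 12.5% and 10.1% of the genes called had not been changed. DESeq2 1.42.0, RLE size factors, no filter, a length correction, a threshold of 0.05, a fit of the 2 groups alone, a replicate block and each library left out were alternatives. The block in experiment 3 was added after the data had been seen.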

Additional observations from a re-analysis of the deposited data

How the results depend on the processing

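Of 312 recomputed counts of called members, 289 were within 1.5 times the reported one, but most of these set 0 against 0. For single called genes, 43 of 65 recomputed values kept the call, and 0 changed direction. The fall of Vha100-2 in AGO2 KD was called in every alternative, with adjusted p from 4.1e-05 to 0.0222, and its difference between LaminB KD and AGO2 KD likewise, up to 0.0827. The count of members lowered in LaminB KD against mock was 1 as reported, 2 with no filter on low counts, 0 at an adjusted p under 0.05, and 0 to 3 when 1 library was left out. For LaminB KD against AGO2 KD the 2 lowered members became 0 with the length correction, 0 at an adjusted p under 0.05, 1 in a fit of the groups compared alone, and 0 to 1 when 1 library was left out. In the contrast of LaminB KD with Dcr-2 KD the count of 0 became 1 with no filter and 0 to 1 when 1 library was left out. The broad copies held 96.9% of the summed level in mock of experiment 1 per kb and 95.5% without division by length. Deviations of libraries with the same replicate number had correlations of -0.04 to 0.08. Libraries with different numbers were not correlated for comparison, so these values cannot tell whether the numbers pair libraries. A replicate block gave 2 lowered members in LaminB KD against mock and 0 in LaminB KD against AGO2 KD. Vha14-1 had 68 to 141 reads in LaminB KD. Experiment 2 had 2 libraries a group, and 61.5% of simulated 2-fold changes were recovered at that size in si5UTR against mock. The folds of the broad copies there lay between 0.753 and 1.1, and recovery of folds this close to 1 was not simulated. LaminB KD and the construct comparisons were not simulated at all. DESeq2 was not run on the contrasts between experiments. The cause of these changes was not tested.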

Other observations

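A split by gene length was made after the values were seen. Among members other than Vha68-3, the 4 shorter than 1.5 kb (Vha14-1, Vha13, Vha36-1 and VhaM9.7-b) had a median log2 fold change of -0.36 in LaminB KD against mock, and the 11 longer ones -0.09. Over all genes tested the same split gave -0.13 for 1882 short genes and 0.02 for 6141 longer genes. With the length correction the medians of the members were -0.20 and -0.02, and those of all genes 0.02 and 0.00. In AGO2 KD the short members were at -0.03 and the longer at -0.12, where all genes were at -0.02 and 0.00. In Dcr-2 KD the short members were at 0.09 and the longer at -0.07, and all genes at 0.07 and -0.01, the same order. The median of the short members thus lay below that of the longer ones in LaminB KD and above it in AGO2 KD and Dcr-2 KD. The ranges of short and longer members overlapped in each. They were -0.64 to -0.13 and -0.23 to 0.06 in LaminB KD, -0.19 to 0.13 and -0.35 to 0.12 in AGO2 KD, and 0.03 to 0.15 and -0.30 to 0.28 in Dcr-2 KD. The short group holds Vha14-1, Vha13 and Vha36-1, already seen to be low in LaminB KD, so the split is a description only.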
